A study of Komagataella phaffii GS115 with 12 samples.

Results

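Methanol-grown cultures of 2 engineered strains of the methylotrophic yeast Komagataella phaffii GS115, also called Pichia pastoris, were compared: strain G12-CBS at 24 h of methanol induction and strain GS115/DS56, called DS56 here, at 72 h. The comparison takes in 6 of the 12 arrays of the series, 3 per group, chosen by their titles, and all 2390 rows of the deposited value table. G12-CBS carries the recombinant methionine adenosyltransferase gene DS56 together with the weak promoter G12, put in to lower CYS4, and its 24 h cultures had received no L-methionine. The DS56 strain carries the same recombinant gene without the change at CYS4, and its cultures had been fed L-methionine at 24 h. Both groups therefore share the GS115 background and the recombinant gene, while strain, time on methanol and feeding differ together and cannot be told apart. The phenotype label of the 24 h group is low-producing for S-adenosyl-L-methionine (SAM), and that of the DS56 group is high-producing; the titles mark both with HP, which the design text uses for the strains. A pair of further groups of 3 arrays each is used only to place the results: G12-CBS at 72 h, and a GS115 strain with the empty vector pPIC3.5K at 72 h, both fed at 24 h. The 3 samples of each group came from separate cultures, per the labels; whether each strain is 1 clone was not stated there. The pair of groups was picked with earlier results of these arrays known, among them that its replicates were the tightest, so its likeness is given as a description.

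SAM is the methyl donor of the cell and is made from methionine and ATP by methionine adenosyltransferase. Cystathionine beta-synthase, the product of CYS4, draws homocysteine out of the cycle that regenerates methionine. On methanol, the yeast oxidises the alcohol in peroxisomes, which releases formaldehyde and hydrogen peroxide; catalase breaks down the peroxide, and the pentose phosphate pathway supplies sugar phosphates that take up formaldehyde. Transcripts for ribosomal proteins are among the most abundant of a growing yeast cell and are known to follow growth rate as a group.

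Values are on the log2 scale, per the deposited table, and an increase of 1 is a doubling of the measured signal. Each row goes by a systematic Saccharomyces cerevisiae open reading frame name, and the table pairs it with no symbol or product. None of the names occurred in the K. phaffii RefSeq gene table (0 of 2390). Symbols and roles below are those of the S. cerevisiae gene with that systematic name, given as background; which K. phaffii transcript a row measures was not tested. Levels are compared only within a row. Array medians were 6.655 to 6.661 in G12-CBS at 24 h and 6.655 to 6.66 in DS56, against 6.59 to 6.62 in the other 6 arrays. No detection limit was applied, so rows near the bottom of the scale may hold background signal.

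The row of SAM2, an S-adenosylmethionine synthetase of S. cerevisiae (YDR502C), stood at the top of the table in both strains that hold the recombinant gene. It read 15.76, 15.58 and 15.76 in G12-CBS at 24 h and 15.76 on each of the 3 DS56 arrays, against 10.17, 10.48 and 10.76 with the empty vector. Since 15.76 is the highest value of the table, these strains cannot be ranked for this row. Its companion row SAM1 (YLR180W), the other synthetase, read 8.72, 8.74 and 8.70 in G12-CBS at 24 h, against 8.74, 8.94 and 8.57 in DS56. The groups overlapped in SAM1, and the interval of the difference, at -0.03 ± 0.16 (SE), lay within 1 on either side of 0. With the empty vector SAM1 read 7.50, 6.97 and 6.70, below every array of both groups compared. Whether this row reads a native or the recombinant transcript was not tested. CYS4 was not analysed here.

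The 2 profiles were alike in nearly all rows. In 2375 of 2390 rows, or 99.4%, the 95% interval of the difference lay within 1 log2 unit of 0, and in 1962, or 82.1%, within 0.5. Most of the 2390 rows had a 12-array mean under 8. Among the 160 rows at 8 or above, the interval lay within 1 of 0 in 146. The middle of the distribution was narrow, with a median difference of 0.006 and 5th and 95th percentiles of -0.25 and 0.25. Across 160 rows whose 12-array mean was at least 8, called bright rows here, arrays of the 2 groups correlated at 0.975 to 0.980 (Pearson, 9 pairs), against 0.996 to 0.997 within G12-CBS at 24 h and 0.995 to 0.997 within DS56. Without the 23 rows called below, the 137 other bright rows correlated at 0.986 to 0.993 between the groups. Those 23 rows had been selected for differing between these arrays, so the higher values follow from that selection. Across the 2230 dimmer rows the between-group values were 0.794 to 0.852, against 0.866 to 0.898 within G12-CBS at 24 h and 0.825 to 0.844 within DS56. Each coefficient runs over rows of the table, whose genes do not count as replicates, and the arrays share a normalization.

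The rows called between the groups over all 12 arrays were few and bright. A row that did not pass is not thereby shown to be unchanged, and 485 of 2390 rows (20.3%) did not overlap between the groups. limma's test passed 23 of 2390 rows (0.962%) at an adjusted p of 0.05, with 13 higher (0.544%) and 10 lower (0.418%) in G12-CBS at 24 h. All 23 were bright rows: 13 of 160 were higher (8.12%), 10 of 160 lower (6.25%), and 0 of the 2230 dimmer rows passed (0.0%). These 23 rows held 25.3% of the summed squared differences between the group means. Differences of at least 2-fold were found in 6 rows, 4 higher and 2 lower, all of them called. At an unadjusted p under 0.05, 138 rows passed. Against a 1.2-fold change instead of 0, 11 rows passed (0.46%), 6 higher and 5 lower. The spread in this test is taken from all 12 arrays, and the median SD per row was 0.095 in G12-CBS at 24 h and 0.112 in DS56, against 0.177 in G12-CBS at 72 h and 0.185 with the empty vector. With the spread of the 6 arrays alone, 66 rows passed (2.76%), 29 higher (1.21%) and 37 lower (1.55%), and all 23 were among them. The median SE per row was 0.097 in this fit, against 0.14 over all 12 arrays. Because the pair was picked with its tight replicates known, this spread may be too small and the adjusted p-values too low. Passes over the 6 arrays, here and below, are therefore given as a description. Leaving out any 1 of the 6 arrays lowered the 12-array count, to between 15 and 20 in place of 23. The 6-array count depended most on G12-CBS 24 h replicate 2: without it the count was 24 in place of 66, against 40 to 56 without any other array. Without G12-CBS 24 h replicate 1 the 6-array count was 40, and the count of higher rows was 8 in place of 13 without G12-CBS 24 h replicate 2 or 3.

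**Figure D1:**
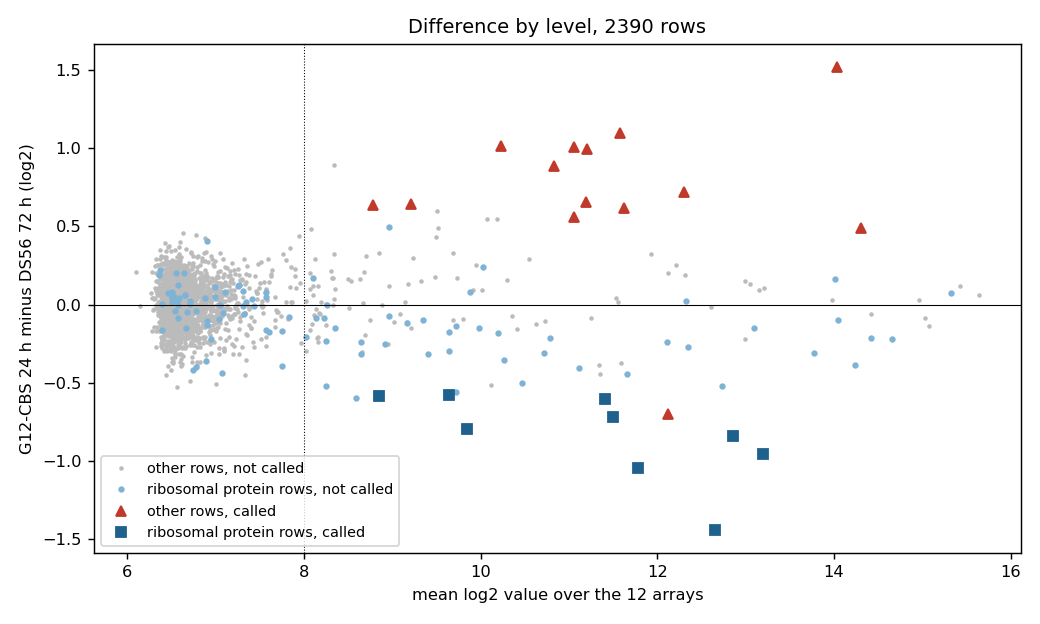
Mean of the 24 h G12-CBS arrays minus mean of the DS56 arrays (log2, vertical axis) against the mean over the 12 arrays (log2, horizontal axis) for each of the 2390 rows; the dotted line marks a mean of 8. Squares and triangles are the 23 called rows, all to the right of the line, and 9 of the 10 called rows below 0 are ribosomal protein rows.

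The called falls were ribosomal. Of the 10 rows called lower in G12-CBS at 24 h, 9 carry names of cytosolic ribosomal proteins, 4 of the large and 5 of the small subunit. None of the 108 ribosomal rows in the table was called higher, against 0.544% of all rows, a share at which 108 rows would hold few or none. Among the 52 bright ribosomal rows 0 were called higher, against 8.12% of all bright rows. The largest fall was in RPL11A (YPR102C), a large-subunit protein that binds the 5S RNA part of the ribosome. It read 10.85, 11.01 and 10.85 in G12-CBS at 24 h, against 12.42, 12.20 and 12.42 in DS56. The difference was -1.44 ± 0.12 (SE), a 2.71-fold lower level, with an adjusted p of 1.89e-07. The 2 groups lay more than 1 unit apart and did not overlap. Called rows were selected on these same arrays, so non-overlap in them, here and below, adds no support to a call.

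RPL3 (YOR063W), a large-subunit protein near the peptidyl transferase centre, read 11.28, 11.16 and 11.08 in G12-CBS at 24 h, against 12.16, 12.27 and 12.23 in DS56. It was 2.06-fold lower (-1.05 ± 0.12, SE; adjusted p = 2.11e-05). RPS20 (YHL015W), of the small subunit, read 12.65, 12.65 and 12.80 in G12-CBS at 24 h, against 13.69, 13.58 and 13.69 in DS56, 1.94-fold lower (adjusted p = 3.70e-05). In both rows every 24 h array lay below every DS56 array. RPS4B (YHR203C), also of the small subunit, read 12.34, 12.27 and 12.34, against 13.42, 13.04 and 13.04 in DS56, and was 1.79-fold lower (adjusted p = 0.000319). One DS56 array was higher than the others in this row, and the groups still did not overlap.

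Both names of a paralogous pair were called lower for RPS23 and RPL20, and 1 of 2 for RPL11 and RPS4. RPS23B (YPR132W), which carries a small-subunit protein of the decoding centre, read 10.71, 10.71 and 10.74 in G12-CBS at 24 h, against 11.44 on each DS56 array, a difference of -0.72 ± 0.11 (SE; adjusted p = 0.000455). Its paralog RPS23A (YGR118W) read 10.60, 10.74 and 10.63, against 11.28, 11.21 and 11.28 in DS56 (-0.60 ± 0.11, SE; adjusted p = 0.00467). Both rows were lower in G12-CBS at 24 h without overlap. RPL20A (YMR242C) averaged 9.22 ± 0.066 in G12-CBS at 24 h, against 10.01 ± 0.017 in DS56 (SD, n = 3 each), a difference of -0.79 ± 0.15 (SE; limma's adjusted p = 0.00602). RPL20B (YOR312C) read 8.14, 8.23 and 8.30, against 8.70, 8.98 and 8.74 in DS56 (-0.58 ± 0.12, SE; adjusted p = 0.0118). Both members of this large-subunit pair were lower without overlap. Paralogs of S. cerevisiae ribosomal genes are near-identical in sequence, so such rows may read the same transcript and are not independent.

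The last ribosomal row, RPS10A (YOR293W), of the small subunit, read 9.001, 9.126 and 9.001 in G12-CBS at 24 h, against 9.591, 9.591 and 9.674 in DS56 (-0.58 ± 0.12, SE; adjusted p = 0.0180). It did not overlap between the groups, but its adjusted p exceeded 0.05 when any 1 of the 6 arrays was left out, at most 0.134. RPL20A lost its call without DS56 replicate 2 or G12-CBS 24 h replicate 2, and RPL20B without either of these or without G12-CBS 24 h replicate 1. RPL11B (YGR085C), paralog of RPL11A, was at 7.79 in G12-CBS at 24 h and 8.39 in DS56 and did not pass (adjusted p = 0.112), nor did RPS4A (YJR145C), at 12.56 and 13.08 (adjusted p = 0.0588). Both passed with the spread of the 6 arrays (adjusted p = 0.00111 for RPL11B and 0.00716 for RPS4A).

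**Figure D2:**
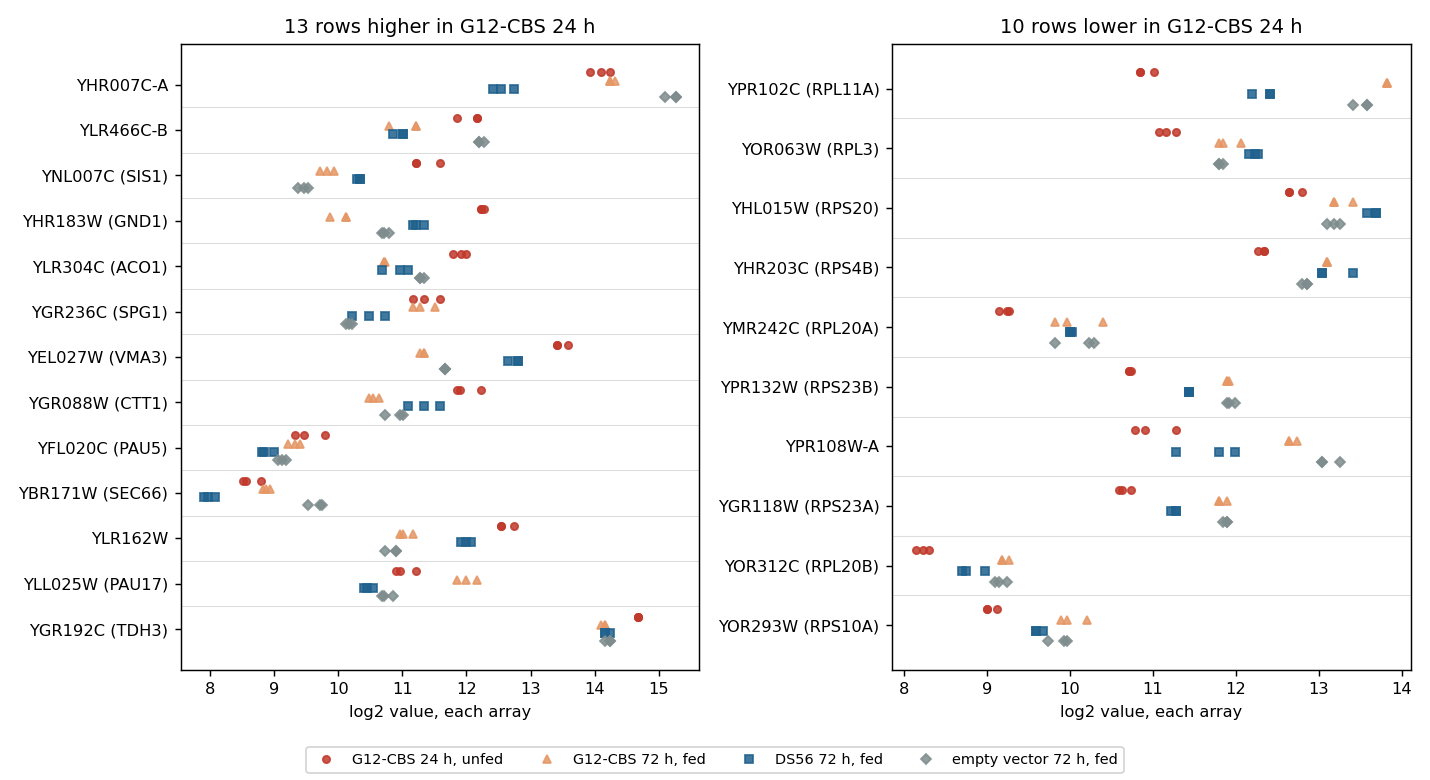
Log2 value on each array (horizontal axis) of the 13 rows called higher and the 10 rows called lower in G12-CBS at 24 h relative to DS56, with the other groups for placement; each symbol is 1 array. In 22 of the 23 rows the 24 h and DS56 arrays do not overlap, YPR108W-A being the exception. Over all 2390 rows, 485 (20.3%) do not overlap. The 23 rows were selected on the same arrays, so their non-overlap is a description.

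Among the bright rows, ribosomal rows as a whole lay mostly below 0. The counts of bright ribosomal rows given here include the 9 called ones, which were selected on the same arrays. Of the 108 ribosomal rows measured, 52 were bright, and 9 of these were called lower (17.3%), against 1 of 108 other bright rows (0.926%). In 45 of the 52 the difference was below 0, with a median of -0.24, against a median of 0.10 in the other bright rows and 0.006 in all rows. The 24 h arrays lay below all DS56 arrays in 30 of the 52 bright ribosomal rows (57.7%) and above them in 2 (3.85%), RPS27B and RPP2B. In the 108 other bright rows they lay below in 7 (6.48%) and above in 34 (31.5%). Over the whole table, non-overlap was found in 485 rows (20.3%), 241 higher (10.1%) and 244 lower (10.2%). The 56 ribosomal rows under a mean of 8 had a median difference of 0.02, with 8 lower and 3 higher without overlap and 3 called lower with the spread of the 6 arrays; bright and dim ribosomal rows were not tested against each other. No set test was made, and the lists were compiled with earlier results of these arrays known.

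The mean over the 52 bright ribosomal rows was 10.48, 10.48 and 10.51 on the G12-CBS 24 h arrays, against 10.79, 10.83 and 10.75 on the DS56 arrays. The 108 other bright rows averaged 10.24, 10.23 and 10.23 in G12-CBS at 24 h, against 10.09, 10.06 and 10.11 in DS56. Neither mean overlapped between the groups. The medians over the same 52 ribosomal rows did overlap, at 9.91, 10.006 and 10.144 in G12-CBS at 24 h, against 10.237, 10.372 and 10.121 in DS56, and the mean includes the 9 called rows. Over all 160 bright rows the means were 10.31, 10.31 and 10.32 in G12-CBS at 24 h and 10.32, 10.31 and 10.32 in DS56. With these means alike, the lower ribosomal mean and the higher mean of the other bright rows offset each other on this scale. A link between them was not tested, and which of them changed in amount of RNA per cell cannot be told apart. The ribosomal means were 10.69, 10.54 and 10.73 in G12-CBS at 72 h and 10.71, 10.78 and 10.78 with the empty vector.

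**Figure D3:**
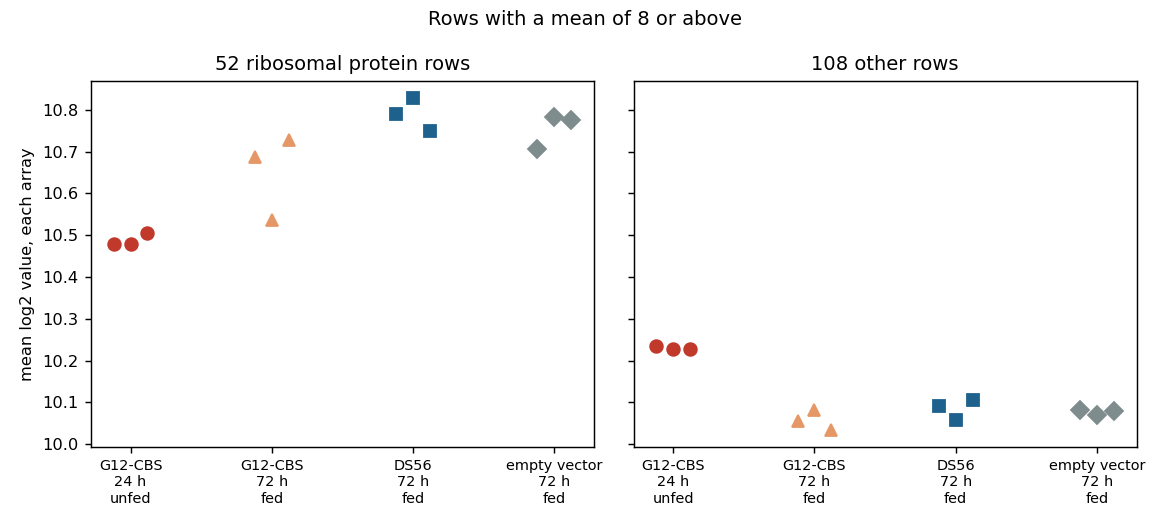
Mean log2 value on each array over the 52 bright ribosomal protein rows and over the 108 other bright rows; each symbol is 1 array. The 3 arrays of G12-CBS at 24 h have the lowest ribosomal means, 10.48 to 10.51, and the highest means of the other rows, 10.23 to 10.24; by the median over the ribosomal rows the 24 h arrays are not the lowest, since replicate 3 is at 10.144 and DS56 replicate 3 at 10.121.

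The 13 rows called higher in G12-CBS at 24 h were of mixed function, with 4 from the list of central carbon and peroxide metabolism. GND1 (YHR183W), 6-phosphogluconate dehydrogenase of the oxidative pentose phosphate pathway, read 12.23, 12.23 and 12.27 in G12-CBS at 24 h, against 11.21, 11.34 and 11.16 in DS56. It was 2.01-fold higher (1.01 ± 0.12, SE; adjusted p = 2.55e-05). ACO1 (YLR304C), aconitase of the tricarboxylic acid cycle, read 11.99, 11.80 and 11.92, against 10.96, 11.08 and 10.68 in DS56, 1.99-fold higher (0.99 ± 0.12, SE; adjusted p = 3.70e-05). In both rows the lowest 24 h array lay above the highest DS56 array.

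CTT1 (YGR088W), the cytosolic catalase that breaks down hydrogen peroxide, read 11.90, 11.85 and 12.23 in G12-CBS at 24 h, against 11.34, 11.58 and 11.08 in DS56, 1.58-fold higher (adjusted p = 0.0225). TDH3 (YGR192C), glyceraldehyde-3-phosphate dehydrogenase of glycolysis, read 14.68 on each 24 h array, against 14.24, 14.16 and 14.16 in DS56, 1.40-fold higher (adjusted p = 0.0259). Both rows were separated without overlap. The call of TDH3 was lost when any 1 of the 6 arrays was left out (adjusted p up to 0.148), and that of CTT1 for 5 of the 6, DS56 replicate 2 being the exception (up to 0.250). Repeated values such as the 14.68 of TDH3 come from the steps of the scale, where neighbouring levels between 12 and 14 were 0.074 apart in the median and up to 0.172, so an SD of 0 does not measure the spread of cultures.

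As a whole, the list of central carbon and peroxide metabolism was less clear, and its counts here include the 4 called rows. It held 36 rows, of which 4 were called higher and 0 lower, against 0.544% higher and 0.418% lower over all rows. All 4 were among its 9 bright rows, and 8.12% of all bright rows were called higher. The list's median was 0.08, against 0.006 for all rows. All 9 of its bright rows had a difference above 0, and 7 of them were higher without overlap, against 31.5% of all bright rows outside the ribosomal lists. Over its 36 rows, 10 were higher and 2 lower without overlap, and 1 was called lower with the spread of the 6 arrays. The bright rows without overlap include TDH2 (YJR009C, a second glyceraldehyde-3-phosphate dehydrogenase), at 11.83 in G12-CBS at 24 h and 11.51 in DS56 (adjusted p = 0.327). PGI1 (YBR196C), phosphoglucose isomerase, was at 9.71 and 9.38 (adjusted p = 0.608). Neither passed the test.

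SIS1 (YNL007C), a J-domain co-chaperone of Hsp70 that is needed for the start of translation in S. cerevisiae, read 11.21, 11.21 and 11.58 in G12-CBS at 24 h, against 10.34, 10.29 and 10.34 in DS56. It was 2.02-fold higher (1.02 ± 0.13, SE; adjusted p = 3.70e-05) and did not overlap. It was the 1 called row among 27 chaperone rows, of which 3 were bright, against 8.12% of bright rows called higher in the table. The list's median was 0.02; its other bright rows HSP82 and KAR2, at -0.05 and 0.02, did not pass. VMA3 (YEL027W), the proteolipid subunit of the vacuolar proton pump, read 13.58, 13.42 and 13.42 in G12-CBS at 24 h, against 12.80, 12.80 and 12.65 in DS56, 1.65-fold higher (adjusted p = 0.000743). SEC66 (YBR171W), a subunit of the complex that moves finished proteins into the endoplasmic reticulum, read 8.57, 8.52 and 8.79, against 7.97, 8.07 and 7.91 in DS56, 1.56-fold higher (adjusted p = 0.00593). Both were separated without overlap, and SEC66 lost its call only without G12-CBS 24 h replicate 3 (adjusted p = 0.0738) among its 20 alternatives.

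SPG1 (YGR236C), needed for survival in stationary phase in S. cerevisiae, read 11.16, 11.58 and 11.34 in G12-CBS at 24 h, against 10.48, 10.21 and 10.74 in DS56, 1.84-fold higher (0.88 ± 0.15, SE; adjusted p = 0.00149). A pair of rows of the seripauperin family, small cell wall proteins, also rose. PAU5 (YFL020C) read 9.318, 9.469 and 9.799 in G12-CBS at 24 h, against 8.844, 8.811 and 9.001 in DS56 (adjusted p = 0.0119), and PAU17 (YLL025W) read 10.96, 10.90 and 11.21, against 10.55, 10.45 and 10.40 (adjusted p = 0.0277). All 3 rows were free of overlap, but PAU17 lost its call without any 1 of the 6 arrays and PAU5 without 4 of them. Family members are alike in sequence and may read the same transcript.

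The remaining 4 called rows have no role given here. YHR007C-A read 14.24, 13.92 and 14.09 in G12-CBS at 24 h, against 12.55, 12.42 and 12.73 in DS56, and its 2.87-fold higher level (1.52 ± 0.13, SE; adjusted p = 1.89e-07) was the largest difference of the comparison. YLR466C-B read 12.16, 12.16 and 11.85, against 11.01, 10.85 and 11.01 in DS56, 2.14-fold higher (adjusted p = 3.70e-05), and YLR162W read 12.55, 12.73 and 12.55, against 11.99, 11.92 and 12.06 (adjusted p = 0.00661). These 3 rows were higher without overlap, and YLR162W lost its call without DS56 replicate 2 or G12-CBS 24 h replicate 2. YPR108W-A was lower, at 10.79, 11.28 and 10.90 in G12-CBS at 24 h, against 11.80, 11.28 and 11.99 in DS56 (-0.70 ± 0.16, SE; adjusted p = 0.0387), and it is the 1 called row in which an array of each group reached the same level; its call was lost without 4 of the 6 arrays (adjusted p up to 0.373). Names that end in a hyphen and a letter, as 3 of these 4 do, made up 137 rows of the table, of which 2 were called higher and 1 lower; 20 of the 137 were bright, and of all bright rows 8.12% were called higher and 6.25% lower.

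The remaining lists held no called row, against a share of 0.962% over all rows, so that lists of this size would hold few or none. The sulfur amino acid and methyl cycle list had 26 rows with differences from -0.20 to 0.19, and every interval lay within 1 of 0. Its 2 bright rows are SAM2 and SAM1, and the interval of SAM2 carries no weight because the row is at the top of the scale. SHM2 (YLR058C), cytosolic serine hydroxymethyltransferase, was at 0.19 ± 0.17 (SE), and GSH1 (YJL101C), the first enzyme of glutathione synthesis, at -0.20 ± 0.14. The 7 histone rows lay between -0.21 and 0.13, with the widest interval reaching -0.57. The 6 peroxisome import, 12 proteasome, 22 mitochondrial ribosome, 24 translation factor and 19 respiratory chain rows also held 0 calls, with all intervals within 1 of 0. Most of these rows were dim: 2 of 26 sulfur rows, 1 of 22 mitochondrial ribosome rows and 0 of 6 peroxisome import rows were bright, and all calls lay among bright rows.

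A few of these rows missed the threshold over 12 arrays and passed with the spread of the 6. YEF3 (YLR249W), translation elongation factor 3, read 9.80, 9.87 and 9.94 in G12-CBS at 24 h, against 10.29, 10.40 and 10.45 in DS56 (-0.51 ± 0.14, SE; adjusted p = 0.124 over 12 arrays and 0.00200 over the 6). ATP1 (YBL099W), the alpha subunit of mitochondrial ATP synthase, read 11.67, 11.44 and 11.28, against 11.85, 11.99 and 11.90 (adjusted p = 0.294 and 0.0179), and COX9 (YDL067C), of cytochrome oxidase, was at 7.20 and 7.65 (adjusted p = 0.0794 and 0.00641). All 3 were lower without overlap, and all 3 also passed over 12 arrays with array weights. Such weights count less variable arrays more, so this pass is no support separate from the 6-array fit.

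**Figure D4:**
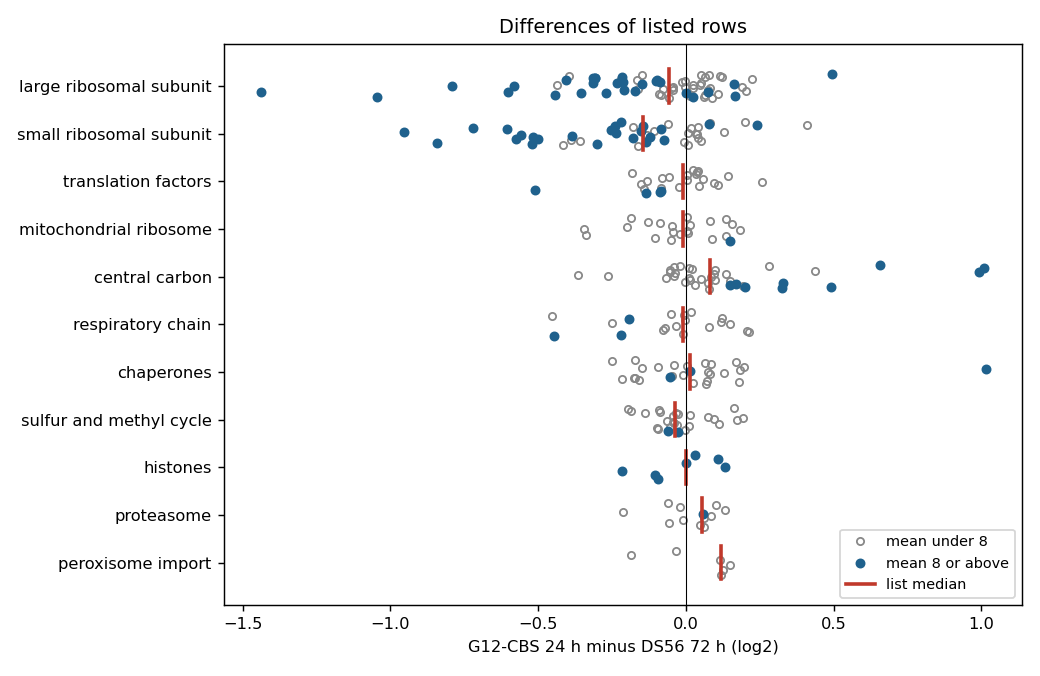
Mean of the 24 h G12-CBS arrays minus mean of the DS56 arrays (log2, horizontal axis) for each row of the gene lists, with filled points for a mean of 8 or above over the 12 arrays, open points for dimmer rows and a bar at the list median. The filled points of both ribosomal lists lie mostly below 0, and the 9 filled points of central carbon all lie above 0.

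The spread of the 6 arrays added 43 rows to the 23, with 16 higher and 27 lower in G12-CBS at 24 h, and 24 of them were dimmer rows (of the 2230 dimmer rows, 1.08% passed). Ribosomal names made up 12 of the 27 lower rows and 1 of the 16 higher ones, which brought the ribosomal rows lower in this fit to 21. That count was 10 without G12-CBS 24 h replicate 2. Besides RPL11B and RPS4A, RPS16A (YMR143W) was at 9.08 in G12-CBS at 24 h and 9.64 in DS56 (adjusted p = 0.00551), and RPS13 (YDR064W), like it of the small subunit, at 7.70 and 8.22 (adjusted p = 0.00385). The dim row YJL047C-A was at 6.15 and 6.67 (adjusted p = 0.00793). RPP2B (YDR382W), an acidic protein of the ribosomal stalk, went the other way, at 9.21 in G12-CBS at 24 h and 8.71 in DS56 (adjusted p = 0.00581).

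Among the higher rows that this fit added, YER085C had the largest difference. It read 8.94, 9.42 and 8.81 in G12-CBS at 24 h, against 8.25, 8.01 and 8.23 in DS56 (0.89 ± 0.23, SE over 12 arrays; adjusted p = 0.000191 over the 6 arrays). GTS1 (YGL181W) was at 9.35 in G12-CBS at 24 h and 8.76 in DS56 (adjusted p = 0.00163). CWP2 (YKL096W-A), a cell wall mannoprotein, was at 10.63 and 10.09 (adjusted p = 0.00157), and COA2 (YPL189C-A), a cytochrome oxidase assembly factor, at 10.19 and 9.65 (adjusted p = 0.000973). With equal weights over all 12 arrays these 4 rows had adjusted p-values from 0.0686 to 0.525. All 4 passed with array weights, which again is no support separate from the 6-array fit.

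Since both groups can be set beside G12-CBS at 72 h, each difference splits into a step between strains at 72 h and a step between times within G12-CBS, the second of which includes feeding. These steps share arrays with the comparison itself, so they are given side by side as values. At 72 h, G12-CBS differed from DS56 in 22.4% of rows, 8.33% higher and 14.1% lower. G12-CBS at 72 h differed from G12-CBS at 24 h in 22.8%, 8.24% higher and 14.6% lower. Array medians were lower in G12-CBS at 72 h, at 6.59 to 6.62, against 6.655 to 6.66 in DS56 and 6.655 to 6.661 in G12-CBS at 24 h. These shares were not recomputed after centring or quantile normalization, so their excess of lower rows was not separated from this offset. All 10 rows below DS56 in the 24 h arrays were called higher at the later time within G12-CBS. Between the strains at 72 h, 6 of the 10 were higher in G12-CBS, 1 was lower (RPS20) and 3 did not pass. RPL11A stood 2.92 ± 0.12 (SE) higher in the 72 h G12-CBS arrays than in the 24 h ones and 1.48 ± 0.12 higher than in DS56. RPL20A was 0.85 ± 0.15 higher at 72 h than at 24 h, and the strains at 72 h differed in it by 0.05 ± 0.15.

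The 13 higher rows split in their steps. Within G12-CBS, 8 were lower at 72 h than at 24 h, 1 was higher (PAU17) and 4 did not pass, and between strains at 72 h G12-CBS lay below DS56 in 5, above it in 5, and 3 did not pass. GND1, VMA3, CTT1, SIS1 and YLR162W fell in both steps, so that DS56 lay between the times of G12-CBS. GND1 read 10.11, 9.87 and 10.11 in G12-CBS at 72 h, a step of -2.21 ± 0.12 (SE) from 24 h and of -1.21 ± 0.12 from DS56. VMA3 was at -2.15 ± 0.11 from 24 h and at -1.43 ± 0.11 from DS56. In ACO1, TDH3 and YLR466C-B the step between times passed (-1.18, -0.54 and -0.98) and the step between strains did not (-0.19, -0.05 and 0.12).

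YHR007C-A, SPG1, SEC66 and PAU5 showed the reverse. In these the step between strains passed, at 1.70, 0.84, 0.89 and 0.43, and the step between times did not, at 0.18, -0.05, 0.25 and -0.22. YHR007C-A read 14.24, 14.24 and 14.32 in G12-CBS at 72 h and 15.27, 15.10 and 15.27 with the empty vector, so DS56 was the lowest group. SPG1 read 10.21, 10.17 and 10.11 with the empty vector, at or below the lowest DS56 array. PAU17 was highest in G12-CBS at 72 h, at 11.99, 12.16 and 11.85.

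**Figure D5:**
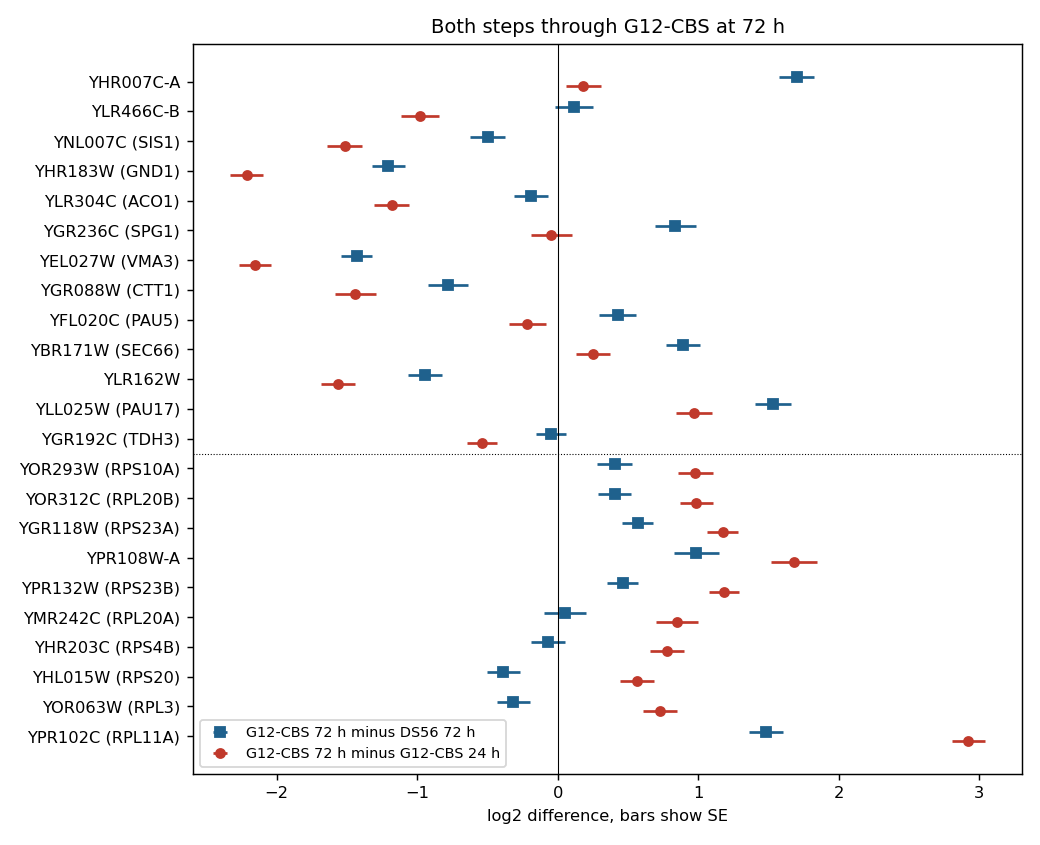
Log2 difference, with SE, of G12-CBS at 72 h from DS56 at 72 h (squares) and from G12-CBS at 24 h (circles) for the 23 called rows; rows above the dotted line are those above DS56 in the 24 h arrays. The circles of all 10 rows under the line lie to the right of 0, from 0.57 to 2.92.

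Placed among all 12 arrays, the 24 h arrays were the outermost group in most called rows. They lay below the other 9 arrays in 9 of the 10 lower rows, all of them ribosomal, and above the other 9 in 7 of the 13 higher rows: GND1, ACO1, SIS1, VMA3, CTT1, TDH3 and YLR162W. Over the whole table the 24 h arrays lay below the other 9 in 51 rows (2.13%) and above them in 71 (2.97%). DS56 lay below the other 9 arrays in 4 of the 13 higher rows, YHR007C-A, SEC66, PAU5 and PAU17, and above them in 2 of the 10 lower rows, RPL3 and RPS20. It did so in 34 (1.42%) and 65 (2.72%) rows of the table. Since these rows had been selected on the same arrays, the positions are a description.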

How the data were processed

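Total RNA of 12 samples was labelled with Cy3 and hybridised to NimbleGen arrays, per the labels. The authors deposited 1 log2 value per row and array. The submitters' processing notes name RMA with no version. The design text gives 8 probes per gene and 5777 genes per chip, of which the 2390 rows of the table were used here. No further normalization was applied. RMA usually makes arrays share 1 distribution, so levels are relative; precision is limited by having 3 arrays a group.

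Groups were taken from the sample titles. The linear model of limma 3.58.1, with eBayes moderation in R 4.3.3, was fitted to the 4 groups over all 12 arrays and 2390 rows, two-sided, with Benjamini-Hochberg adjustment over all genes in the table and a threshold of 0.05; treat was used for a 1.2-fold change. The fit was tested on simulated data. With 3 against 3 arrays an exact permutation test cannot go below 0.1 and was not used. Bright rows have a mean of at least 8. Of 441 names in 11 gene lists, compiled from S. cerevisiae systematic names, 287 were in the table.

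Named rows are all called rows, the 5 largest rises and falls called only over the 6 arrays, the synthetase rows, and up to 3 rows per list with the largest difference; others were named after their values were seen. The members and lists were chosen with earlier results of these data known. Same-numbered arrays of the 2 groups did not deviate together (correlations of 0.005, -0.12 and -0.03), so the numbers were not taken as pairs. Figures were drawn with matplotlib 3.10.9.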

Additional observations from a re-analysis of the deposited data

How the results depend on the processing

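The 23 called rows kept their direction in all 460 alternative fits and stayed past the threshold in 415 of them; 13 rows, 7 higher and 6 lower, passed in all 20 alternatives. These rows had been picked on the same arrays. With the spread of the 6 arrays the counts were 66 rows, 29 higher and 37 lower, with 21 ribosomal rows lower, against 23, 13, 10 and 9 as reported. Array weights gave 76, 34, 42 and 22, with 17 rows past a 1.2-fold change in place of 11, and a variance trend with robust moderation gave 18 lower rows and 15 lower ribosomal rows; the cause was not tested. The 1.2-fold test was not run with the trend. Leaving out 1 array gave 15 to 29 rows, 8 to 16 higher and 7 to 13 lower, 6 to 12 ribosomal rows lower, 8 to 11 rows past 1.2-fold, 2369 to 2377 rows with an interval within 1, and, over 6 arrays, 24 to 56 rows and 10 to 18 ribosomal rows. The replicate block gave 20 rows, 11 higher and 9 lower, and 34 with the 6 arrays. Whether the numbers pair the cultures was checked only by correlation between the 2 groups, which cannot exclude pairing. Quantile normalization and centring on the array median each gave 23 rows and 9 ribosomal ones. The difference of SAM1, which was not called, ran from -0.12 without DS56 replicate 3 to 0.068, a reversed sign, without DS56 replicate 2. The ribosomal counts and the arrays left out of the 6-array fit were chosen after seeing the data. The 1 threshold of brightness at 8 was not varied.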
